A study of Homo sapiens with 2 samples.

Results

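GPR17-positive peripheral glia of human inner ear organoids were described here as a small class of single cells chosen by their UMI counts (unique molecular identifiers, each standing for 1 captured RNA molecule). A cell was a member when it had at least 1000 detected genes, at most 15% mitochondrial UMIs, at least 3 UMIs summed over CDH19, FOXD3, GFRA3 and LGI4, and at least 1 UMI each of SOX10 and GPR17. It also had to hold fewer than 5 UMIs of OC90, fewer than 5 of COL1A2, fewer than 3 summed over the proliferation genes MKI67, TOP2A and UBE2C, and fewer than 3 summed over the melanocyte genes MLANA, TYRP1 and TYR. The rule found 241 members among 31818 kept cells, 128 of them in the GelNB-CH library and 113 in the Matrigel library. Because these genes selected the cells, their levels are given only as a description.

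Both libraries came from day 40 organoids of WA25, an established human embryonic stem cell line in which a nuclear tdTomato reporter follows SOX2, and both were loaded with reporter-positive cells sorted after 90 min in Accutase. One culture was labelled GelNB-CH, a gelatin hydrogel set by light with a 4-arm thiol crosslinker at 0.1 wt%, and the other was labelled Matrigel, a basement membrane extract. The growth text is the same for both labels and describes embedding on day 11, oxidized dextran at 0.02%, a WNT activator and a low share of Matrigel at the start of culture, so no separate embedding step for the Matrigel culture can be given. Each condition was 1 library without replicates. Differences between the cultures therefore have no replicate check and no p-value, and the 95% intervals cover counting error only.

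The peripheral glia of ganglia and nerves descend from the neural crest and include Schwann cells, which ensheath axons, and satellite glia, which wrap neuron cell bodies. SOX10 is the transcription factor that specifies and maintains them, CDH19 is a cadherin of Schwann cell precursors, and ERBB3 receives the neuregulin signal by which axons sustain them. GPR17 is a G protein-coupled receptor related to the P2Y and cysteinyl leukotriene receptors and is best known from the brain, where it marks an intermediate stage of the oligodendrocyte lineage.

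GPR17 lies on chromosome 2 at 127645864 to 127652639 on the plus strand (GRCh38), within the span of LIMS2 on the minus strand. The sources used here do not say whether counting used strand. The start regions of GPR17 and of ACSBG1, an acyl-CoA synthetase gene that was more abundant in GPR17-positive than in GPR17-negative glia in both libraries, are shown so that the letters searched for can be seen in place. They run from 250 bases before to 50 bases after the RefSeq start (GRCh38.p14), GPR17 as chr2:127645903-127646202 on the plus strand and ACSBG1 as chr15:78234516-78234815 on the minus strand. Capitals mark matches on either strand to the SOX core letters ACAAAG or ACAATG or to the E-box letters CAGCTG or CACCTG.
GPR17: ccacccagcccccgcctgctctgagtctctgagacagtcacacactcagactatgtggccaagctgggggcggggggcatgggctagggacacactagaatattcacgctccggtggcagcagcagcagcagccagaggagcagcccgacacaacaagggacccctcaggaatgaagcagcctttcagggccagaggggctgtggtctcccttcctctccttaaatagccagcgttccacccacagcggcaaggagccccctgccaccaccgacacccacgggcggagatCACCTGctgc
ACSBG1: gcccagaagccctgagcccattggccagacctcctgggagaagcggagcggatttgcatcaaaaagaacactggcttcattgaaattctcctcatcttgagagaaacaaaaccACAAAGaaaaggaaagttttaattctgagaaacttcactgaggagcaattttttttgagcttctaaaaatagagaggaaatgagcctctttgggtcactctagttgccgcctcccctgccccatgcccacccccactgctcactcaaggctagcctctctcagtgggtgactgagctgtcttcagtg
The GPR17 window held 1 CACCTG match and the ACSBG1 window 1 ACAAAG match. Of 17577 promoters of the same length, 20.1% held CACCTG, 13.96% ACAAAG, 17.8% CAGCTG and 8.77% ACAATG. Of the 33 promoters found for genes lower in GPR17-positive than in GPR17-negative glia in both libraries, 27.3% held CACCTG, 21.2% ACAAAG, 24.2% CAGCTG and 3.03% ACAATG. These matches describe letters and not binding sites.

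The GelNB-CH library held 21743 barcodes and the Matrigel library 10912, with 78 barcode sequences in common, and 98.0% and 96.2% of them were kept. Median depth was 9265 UMIs per kept cell in GelNB-CH and 14403 in Matrigel. Members were shallower than that, at medians of 7739 and 11633 UMIs and 2903.5 and 3648 genes. No GelNB-CH member and 1 Matrigel member had a barcode that also occurred in the other library. The caller Scrublet marked 7 GelNB-CH and 4 Matrigel members as doublets. By marker genes, 3 GelNB-CH and 6 Matrigel members had at least 5 UMIs of a set of 6 neuron genes, and these few cells held 86.7% and 94.9% of all such UMIs among members. A further 5 and 3 members had at least 5 UMIs of 6 cartilage genes, holding 80.9% and 20.2% of those UMIs.

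Members made up 0.600% of kept cells in GelNB-CH (exact Clopper-Pearson 95% interval 0.501% to 0.713%) and 1.08% in Matrigel (0.888% to 1.29%), a Matrigel over GelNB-CH ratio of 1.79 (1.38 to 2.33). The ratio was 3.48 (2.50 to 4.88) when cells were thinned to 5000 UMIs and the whole rule was applied anew, and 1.34 (0.773 to 2.27) when members needed at least 2 GPR17 UMIs. The limits of the rule, COL1A2 included, are fixed counts, so thinning also changed which cells met them. Non-cycling glia went from 490 to 356 in GelNB-CH and from 444 to 669 in Matrigel, so the thinned ratio is not a depth correction of the same cells. The share of GPR17-positive cells among non-cycling glia of the same rule was nearly level, at 26.1% (22.3% to 30.3%) of 490 cells and 25.5% (21.5% to 29.8%) of 444. When the cells already classed as glia were thinned to 5000 UMIs, with no new application of the rule, these shares became 19.3% of 450 cells and 15.6% of 403, with 40 and 41 shallower cells left out. Without the COL1A2 limit the shares were not level, at 23.9% (21.0% to 27.0%) of 804 cells and 29.7% (27.7% to 31.8%) of 2001. Thinned in the same way, those became 15.2% of 758 cells and 13.5% of 1954. GPR17 was sparse even in members. A single UMI was found in 90 of the 128 GelNB-CH members and in 88 of the 113 Matrigel members, and the highest counts in any member were 4 and 6. In cells with no UMI of SOX10, CDH19, FOXD3, GFRA3 or LGI4, called non-glial below, a GPR17 UMI was present in 0.161% of 13065 cells and 0.202% of 4458, at median depths of 8286 and 12852.5 UMIs. Among glia that failed the limit on proliferation genes and met the other parts of the rule, GPR17 aside, 22.9% of 48 cells in GelNB-CH and 18.0% of 61 in Matrigel had a GPR17 UMI.

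The limit on COL1A2, which encodes a chain of type I collagen, decided how many cells were members in Matrigel. Of the cells that met every other part of the rule, it removed 64 of 192 (33.3%) in GelNB-CH and 482 of 595 (81.0%) in Matrigel. COL1A2 had a median of 3 UMIs in these GelNB-CH cells and 11 in these Matrigel cells. Depth differed between them as well, with medians of 8645.5 and 15915 UMIs. At a common depth of 5000 UMIs, 12.6% of 182 GelNB-CH cells (8.18% to 18.4%) and 34.4% of 588 Matrigel cells (30.5% to 38.3%) still had at least 5 COL1A2 UMIs. The distributions in the plot of COL1A2 per cell had no gap at the limit, with 16 GelNB-CH cells at 4 UMIs and 13 at 5, and 29 Matrigel cells at 4 and 36 at 5. Without the limit the share of GPR17-positive glia was 0.901% in GelNB-CH and 5.67% in Matrigel, a ratio of 6.29 (5.34 to 7.44).

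**Figure D1:**
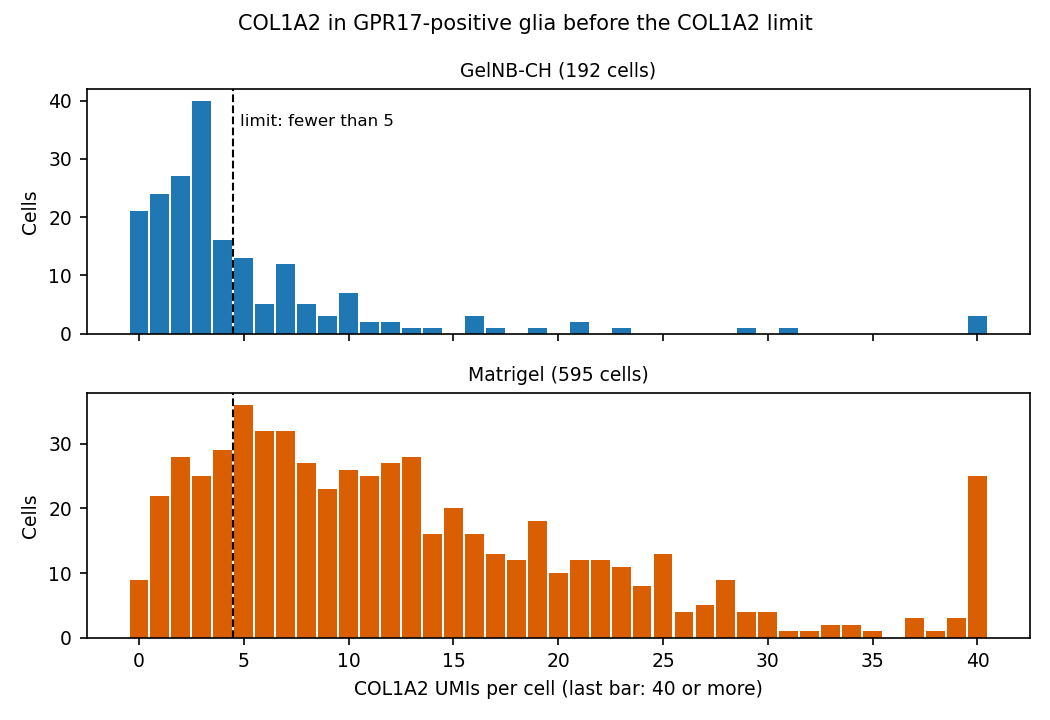
COL1A2 UMIs per cell (horizontal axis) and number of cells (vertical axis) for glia that met every part of the rule except the COL1A2 limit, 192 cells in GelNB-CH and 595 in Matrigel, with the limit as a dashed line. The median was 3 UMIs in GelNB-CH and 11 in Matrigel, and counts ran across the limit without a break.

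Other connective tissue genes did not follow COL1A2 in equal measure. With the limit dropped, COL1A2 stood at 526 CPM (UMIs of a gene per 1000000 UMIs of the cells summed) in GelNB-CH glia and 783 in Matrigel glia, against 688 and 1162 in non-glial cells. COL3A1, the type III collagen of loose connective tissue, stood at 100.0 and 40.1 CPM in the glia against 340 and 681 in non-glial cells. LUM, a proteoglycan of fibroblasts, stood at 25.9 and 17.2 CPM against 166 and 183. PDGFRA, a receptor of mesenchymal and oligodendrocyte precursor cells, stood at 12.7 and 5.29 CPM against 48.7 and 63.6. In Matrigel, COL1A2 was thus nearer to the non-glial level than COL3A1, LUM or PDGFRA were. The part that RNA of other cells has in the COL1A2 of these glia was not tested. The other limits touched fewer cells. At the limit of 3 UMIs for the glial genes, 23 GelNB-CH and 8 Matrigel members held exactly 3, and 24 and 6 cells that met the rest of the rule held 2, with ITGA1 at 250.2 and 131 CPM just inside and at 285 and 327 just outside.

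The glial genes that selected the members were close in both libraries. CDH19 stood at 565 CPM in GelNB-CH and 587 in Matrigel, SOX10 at 307 and 303, FOXD3, a transcription factor of neural crest and its early glia, at 85.7 and 97.1, GFRA3, the artemin co-receptor, at 58.1 and 61.6, and LGI4, a secreted factor needed for Schwann cell myelination, at 66.6 and 92.8. GPR17 itself stood at 166 and 113 CPM. The rule asked for at least 1 GPR17 UMI and most members had exactly 1, at median depths of 7739 and 11633 UMIs. Its CPM in members thus depends on depth and does not compare the libraries. ITGA1, the collagen and laminin receptor subunit given as a marker of the class but not used by the rule, had a UMI in 68.0% and 76.1% of members. Its level was 288 CPM in GelNB-CH and 286 in Matrigel, against 5.08 and 6.02 in non-glial cells and 252 and 229 in GPR17-negative glia.

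The Schwann and satellite glia markers not used by the rule were present as well. ERBB3 stood at 310 and 321 CPM in members and at 34.4 and 19.7 in non-glial cells, and S100B, a calcium-binding protein of glia, at 1744 and 1957 CPM against 290 and 182. Over all 14 genes of that list the summed level was 4776 CPM in GelNB-CH members and 5087 in Matrigel members, against 664 and 505 in non-glial cells. The list includes SOX10, CDH19, FOXD3, GFRA3 and LGI4, which selected the members and which non-glial cells lack by definition. Part of the gap in the sum was thus set in advance. FABP7 went the other way, with 40.9 and 22.7 CPM in members and 95.2 and 81.3 in non-glial cells. Since every gene list was written with earlier results of these data known, these levels check the label and support nothing further.

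Markers of central glia were nearly absent. The 12 oligodendrocyte lineage markers summed to 7.62 CPM in GelNB-CH and 9.92 in Matrigel members, and OLIG2, NKX2-2, BCAS1, MOG and OPALIN had no UMI in members of either library. With 1050509 and 1411350 UMIs summed over members, a count of 0 allows up to 2.86 and 2.13 CPM for counting error. The 7 astrocyte markers summed to 16.2 and 11.3 CPM, with GFAP, AQP4 and ALDH1L1 at 0 in both. Melanocyte markers, limited in part by the rule, summed to 40.0 and 44.6 CPM. Endothelial and immune markers summed to 0.952 and 0.709 CPM. Neuron markers summed to 470 and 567 CPM in members, and to 273 and 210 CPM after the few cells with neuron or cartilage genes were left out. Other marker lists were not near 0. The rule limited COL1A2, a mesenchyme marker, and OC90, an otic epithelium marker, in members but not in non-glial cells. Mesenchyme markers summed to 1135 and 1183 CPM in members against 2496 and 3739 in non-glial cells, and cartilage markers to 1954 and 1417 against 3968 and 3206. Central nervous system progenitor markers summed to 195 and 157 CPM in members, against 193 and 94.3 in non-glial cells. Otic epithelium markers summed to 124 and 143 CPM against 1939 and 1187, and muscle markers to 60.9 and 55.3 against 38.1 and 23.0. The part of these cell types in the results that follow was not tested beyond the leaving out of cells with neuron or cartilage genes. SOX2, whose reporter was used for the sort, stood at only 16.2 and 12.8 CPM in members, close to the 17.9 and 13.9 CPM of non-glial cells.

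Set against all other kept cells, the members had 15 leading genes, of which 8 are given here. These ratios use the cells the rule selected and are given with no test, and in Matrigel the other cells include the glia removed by the COL1A2 limit. COL20A1, a fibril-associated collagen, stood at 36.2 CPM in GelNB-CH and 73.0 in Matrigel members and at 0.301 and 0.379 in non-glial cells. HSPB2, a small heat shock protein gene, stood at 97.1 and 154 CPM against 0.563 and 0.727. OLFML2A, an olfactomedin-domain matrix protein, had a UMI in 82.8% and 89.4% of members, at 329 and 437 CPM against 1.63 and 2.58. BCHE, butyrylcholinesterase, stood at 235 and 296 CPM against 4.31 and 6.48. NGFR, the low-affinity neurotrophin receptor of Schwann cells, stood at 99.0 and 146 CPM against 4.08 and 7.89, and ALK, a receptor tyrosine kinase, at 247 and 169 CPM against 15.4 and 12.8. IL1RAPL2 and LINGO2, both membrane proteins of the nervous system, stood at 790 and 893 CPM and at 383 and 468 CPM, against 46.3 and 47.6 and against 41.1 and 40.2 CPM. As the plot of leading genes shows, all 15 were also higher in GPR17-negative than in non-glial cells. Some differed between GPR17-positive and GPR17-negative glia, as described further on for ADGRD1 and ACSBG1.

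**Figure D2:**
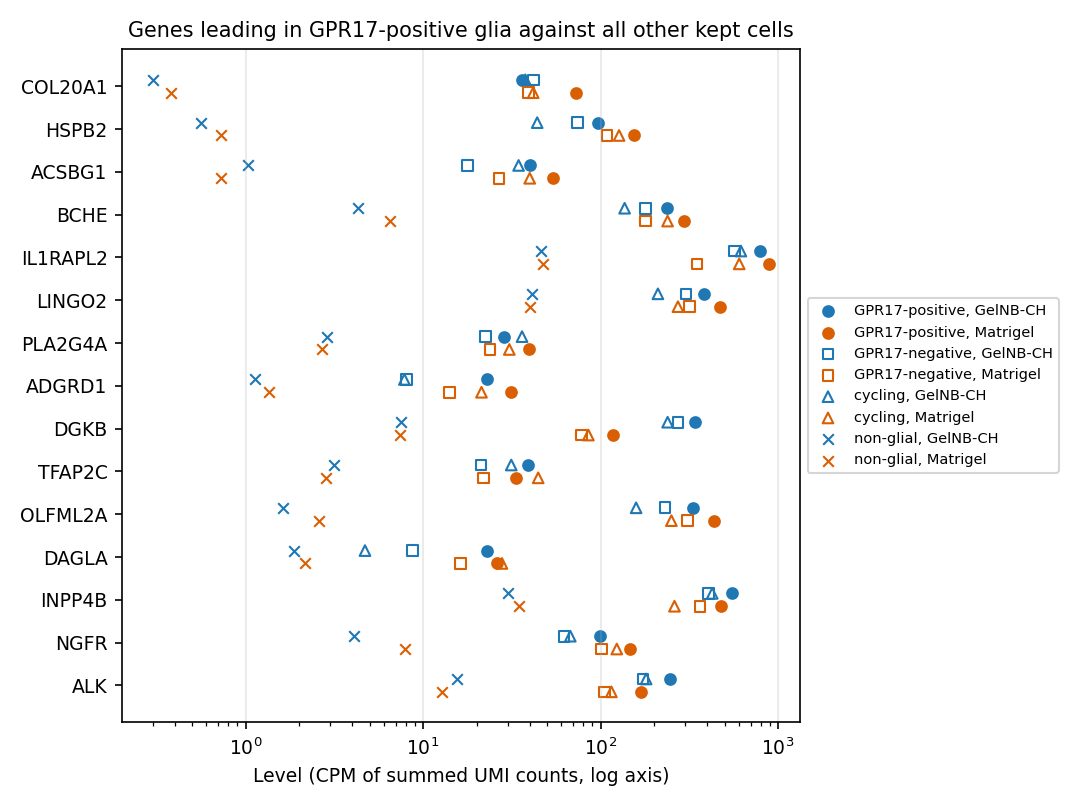
Level in CPM of summed UMI counts (horizontal, log axis) of the 15 genes with the largest ratio of members to all other kept cells, in GPR17-positive, GPR17-negative, cycling and non-glial cells of each library. Non-glial cells lie to the left for every gene shown, for example at 1.63 and 2.58 CPM for OLFML2A, and the 3 glial classes lie to the right of them.

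Myelin genes were uneven among members. PMP22, a myelin membrane protein, stood at 254 and 193 CPM, and CNP, a phosphodiesterase of myelinating cells, stood at 121 and 171 CPM. MBP, a structural protein of compact myelin, stood at 0.952 and 2.13 CPM, below the 7.24 and 5.31 CPM of non-glial cells. PRX, the periaxin of mature Schwann cells, stood at 0.952 and 1.42 CPM, and EGR2, the transcription factor that switches on peripheral myelination, at 4.76 and 0 CPM. The genes linked to the crest and to precursors of Schwann cells were better represented. EDNRB, the endothelin receptor of crest cells, stood at 377 and 344 CPM against 19.9 and 11.8 in non-glial cells, and MEF2C, a transcription factor gene, at 534 and 578 against 36.3 and 39.3. TFAP2A, a crest transcription factor, stood at 129 and 136 CPM against 28.5 and 22.6.

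Among the 18 receptors listed for glia, GPR17 included, ADGRG6, the adhesion receptor required for Schwann cell myelination, stood at 137 CPM in both libraries. LPAR1, a lysophosphatidic acid receptor, stood at 83.8 and 82.2 CPM. The relatives of GPR17 were scarce. CYSLTR1 stood at 2.86 and 0.709 CPM, CYSLTR2 at 1.90 and 2.83, P2RY1 at 7.62 and 5.67, P2RY12 at 0 and 9.21 and P2RY14 at 3.81 and 0.709. P2RY2 and GPR37L1, the second a receptor of mature satellite glia, had no UMI in members of either library. Of the 9 neuregulin pathway genes with a mean of at least 5 CPM, SHC4, an adaptor protein gene, stood at 203 and 199 CPM and ERBB2, the partner of ERBB3, at 24.7 and 22.7.

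Matrix and adhesion genes were strongly represented in both cultures. ITGB1, the common integrin beta chain, stood at 784 and 847 CPM in members against 282 and 293 in non-glial cells, and ITGA6, a laminin receptor subunit, at 215 and 163 against 38.8 and 31.3. The 16 integrin and laminin receptor genes summed to 1956 and 1857 CPM against 630 and 614. The basement membrane genes, 16 in number, summed to 2121 and 2092 CPM against 860 and 884, with COL18A1, the source of endostatin, at 506 and 625 and LAMA4, a laminin chain, at 328 and 298. Their median log2 ratio of CPM plus 1 between libraries was -0.10, where all genes had 0.02. It was 0.30 without the COL1A2 limit and 0.21 in members with 8000 to 16000 UMIs, so its sign depended on the cells used. Sterol synthesis genes were low, at 393 and 491 CPM in sum against 1713 and 2001 in non-glial cells.

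The libraries were then compared within the members, which asks whether these glia differed between the hydrogel and Matrigel cultures. Of 9923 genes that reached 10 CPM in either library, 497 (5.01%) were at least 2-fold higher in Matrigel and 338 (3.41%) in GelNB-CH. Most of these rested on few UMIs. At 50 CPM or more, 49 genes were higher on each side out of 3723. Among 6791 genes with a UMI in at least 20% of the members of a library, 159 (2.34%) were at least 2-fold higher in Matrigel and 65 (0.957%) in GelNB-CH, a limit chosen after the values were seen. Some of the largest ratios belonged to a handful of cells. RBFOX3 and NEUROD1, genes of neurons, were at 20.5 and 60.2 CPM in Matrigel members and 0.952 and 8.57 in GelNB-CH members, from 5 and 6 Matrigel cells. The cartilage genes EPYC, CNMD and MATN1 reached 70.4, 87.6 and 65.7 CPM in GelNB-CH members but 1.42, 3.54 and 3.54 CPM in Matrigel members. A single GelNB-CH cell held 58 of the 74 EPYC UMIs, and single cells held 75 of the 92 CNMD UMIs and 66 of the 69 MATN1 UMIs. Without the neuron and cartilage marker cells the Matrigel over GelNB-CH ratio was 0.76 for NEUROD1, 0.76 for CNMD and 1.27 for MATN1, but 0.190 for EPYC. Other large ratios stayed at least 2-fold without those cells. CCN3, a matricellular protein gene, had a Matrigel over GelNB-CH ratio of 0.0744, and of 0.0786 without them, from 13 GelNB-CH and 3 Matrigel members, and of 0.442 without the COL1A2 limit. The ratio of UNC5D, a netrin receptor, was 0.115 and without them 0.0950, from 7 and 3 members, with 23 of the 39 GelNB-CH UMIs in 1 cell. For EPHA6, an ephrin receptor, it was 0.135 and 0.145, from 20 and 9 members, and 0.219 without the COL1A2 limit. RELN, the secreted protein reelin, had 7.195 and 11.01, from 2 and 14 members.

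Genes spread over many members were led on the Matrigel side by MAL, a proteolipid of myelinating and other polarised cells. It stood at 9.52 CPM in GelNB-CH and 53.1 in Matrigel, found in 9 and 35 members, a ratio of 5.58 (2.87 to 12.1). The ratio was 4.11 (2.57 to 7.001) without the COL1A2 limit, and GPR17-negative glia showed 10.8 and 36.2 CPM. IFITM1, an interferon-induced membrane protein, stood at 7.62 and 39.0 CPM, a ratio of 5.12 (2.42 to 12.4). ARHGAP15, a regulator of Rac signalling that was near 0 in non-glial cells (0.951 and 1.38 CPM), stood at 27.6 and 116 CPM, found in 21 and 58 members, a ratio of 4.21 (2.82 to 6.48). VGLL3, a transcription cofactor, stood at 14.3 and 46.1 CPM, a ratio of 3.23 (1.82 to 6.09). LRRTM4, a synaptic adhesion protein, stood at 85.7 and 247 CPM, a ratio of 2.88 (2.28 to 3.67). ARHGAP15 and VGLL3 had ratios of 4.51 and 3.18 without the COL1A2 limit, whereas SUGCT, a mitochondrial enzyme gene, went from 3.13 to 1.25 and PHF11 from 3.35 to 1.42. LRRTM4 had 1.95 without the limit and 1.81 in members with 8000 to 16000 UMIs.

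On the GelNB-CH side the inducible heat shock genes led. HSPA1A stood at 281 CPM in GelNB-CH and 43.9 in Matrigel, found in 72 and 31 members, a GelNB-CH over Matrigel ratio of 6.39 (4.85 to 8.55). HSPA1B, its near-identical neighbour with which reads may be shared, stood at 87.6 and 12.05 CPM, and HSPH1, a co-chaperone of the same family, at 130 and 39.0 CPM. All 11 heat shock genes listed were lower in Matrigel members, 4 of them at least 2-fold, with a median log2 ratio of -0.54 (-0.61 without the COL1A2 limit) where all genes had 0.02. The summed level was 4661 and 2977 CPM in members. It was 5176 and 3105 CPM in GPR17-negative glia and 4853 and 3470 CPM in non-glial cells, so the direction was shared by cells outside the class. With 1 library each, the culture and the handling of its cells cannot be told apart.

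**Figure D3:**
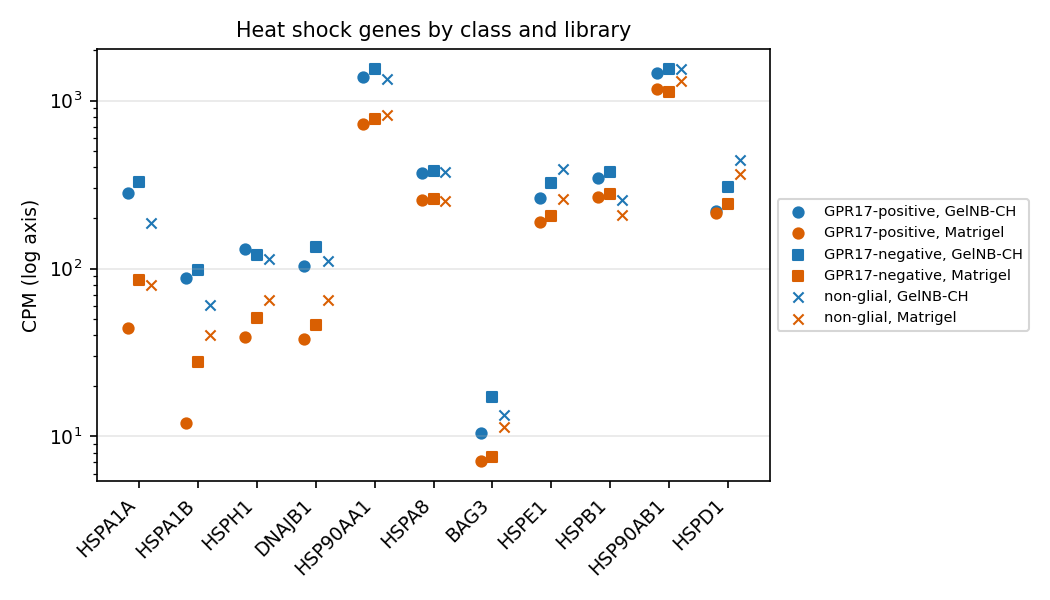
Level in CPM (vertical, log axis) of the 11 heat shock genes in GPR17-positive, GPR17-negative and non-glial cells of each library. GelNB-CH points lie above Matrigel points for each gene, with the widest gaps in members at HSPA1B (87.6 and 12.05 CPM) and HSPA1A (281 and 43.9 CPM).

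Other genes were higher in GelNB-CH members as well. ID2, an inhibitor of differentiation induced by BMP signals, stood at 174 CPM in GelNB-CH and 44.6 in Matrigel, a ratio of 3.90 (2.92 to 5.28) and of 2.44 (2.11 to 2.82) without the COL1A2 limit. Of the 7 BMP target and ID genes with a mean of at least 5 CPM, 6 were lower in Matrigel, with a median log2 ratio of -0.24. Over all genes, 5538 of 11433 were lower. Of the 6 list genes compared, only 1, ID2, was at least 2-fold lower. HBEGF, a ligand of the EGF receptor family, stood at 60.0 and 17.0 CPM in members and at 40.4 and 11.9 in GPR17-negative glia. DGKB, a diacylglycerol kinase, stood at 342 and 118 CPM, found in 64 and 31 members, a ratio of 2.91 (2.41 to 3.51) that was 3.78 (3.35 to 4.26) without the limit. SLC4A4, a bicarbonate transporter, stood at 133 and 42.5 CPM, and SEMA3D, a secreted guidance cue of crest cells, at 83.8 and 26.9 CPM. Without the limit their Matrigel over GelNB-CH ratios went from 0.319 to 0.460 for SLC4A4 and from 0.321 to 0.535 for SEMA3D. ITGB8, an integrin subunit that activates TGF-beta, stood at 109 and 38.3 CPM, a ratio of 2.86 (2.05 to 4.03) that was 1.01 (0.864 to 1.17) without the limit. That difference was not seen once the COL1A2 limit was dropped.

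All 13 immediate early genes with a mean of at least 5 CPM were lower in Matrigel members, 2 of them at least 2-fold, with a median log2 ratio of -0.39. FOS stood at 159 and 71.6 CPM, and IER3, an early response gene, at 41.9 and 8.50. Their summed level was 1070 and 736 CPM in members, but 2176 and 2670 CPM in non-glial cells, which is the opposite order. It was 1135 and 951 CPM in GPR17-negative glia and 1146 and 590 CPM in the glia that failed the proliferation limit, the same order as in members. Of the 12 ATF4 and unfolded protein response genes with a mean of at least 5 CPM, 10 were lower in Matrigel members, with a median of -0.53. Over all genes, 5538 of 11433 were lower and 5895 higher. SDF2L1, a chaperone cofactor of the endoplasmic reticulum, stood at 134 and 62.4 CPM in members. The ATF4 list summed to 1295 and 913 CPM in members. It kept this order in GPR17-negative glia, at 1321 and 952 CPM, and in non-glial cells, at 1658 and 1442 CPM. Repair-associated Schwann cell genes had a median of -0.63 over 11 genes, with GAP43, a growth cone protein, at 113 and 47.5 CPM. The repair list summed to 1307 and 859 CPM in members, 1369 and 1047 in GPR17-negative glia and 1279 and 1219 in non-glial cells. The ion channel and connexin list had a median of 0.34, with 7 of 8 genes higher in Matrigel. GRIK2, a kainate receptor subunit, stood at 921 and 1504 CPM in members. The ion channel list summed to 1320 and 1961 CPM in members and 1440 and 2024 in GPR17-negative glia, but 598 and 563 in non-glial cells. Myelin genes had a median of -0.01 and 1 of 8 compared, MAL, at least 2-fold higher in Matrigel, and the Schwann or satellite glia markers had a median of 0.06. In the 56 and 72 members with 8000 to 16000 UMIs the medians of the heat shock and repair lists were -1.14 and -0.94. The myelin median was 0.39 in those cells and 0.51 without the COL1A2 limit, and the Schwann or satellite marker median 0.41 and 0.27. In those cells 21 list medians shifted by over 0.2 on the log2 scale or crossed 0 and 11 did not, and without the limit 17 did and 15 did not.

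**Figure D4:**
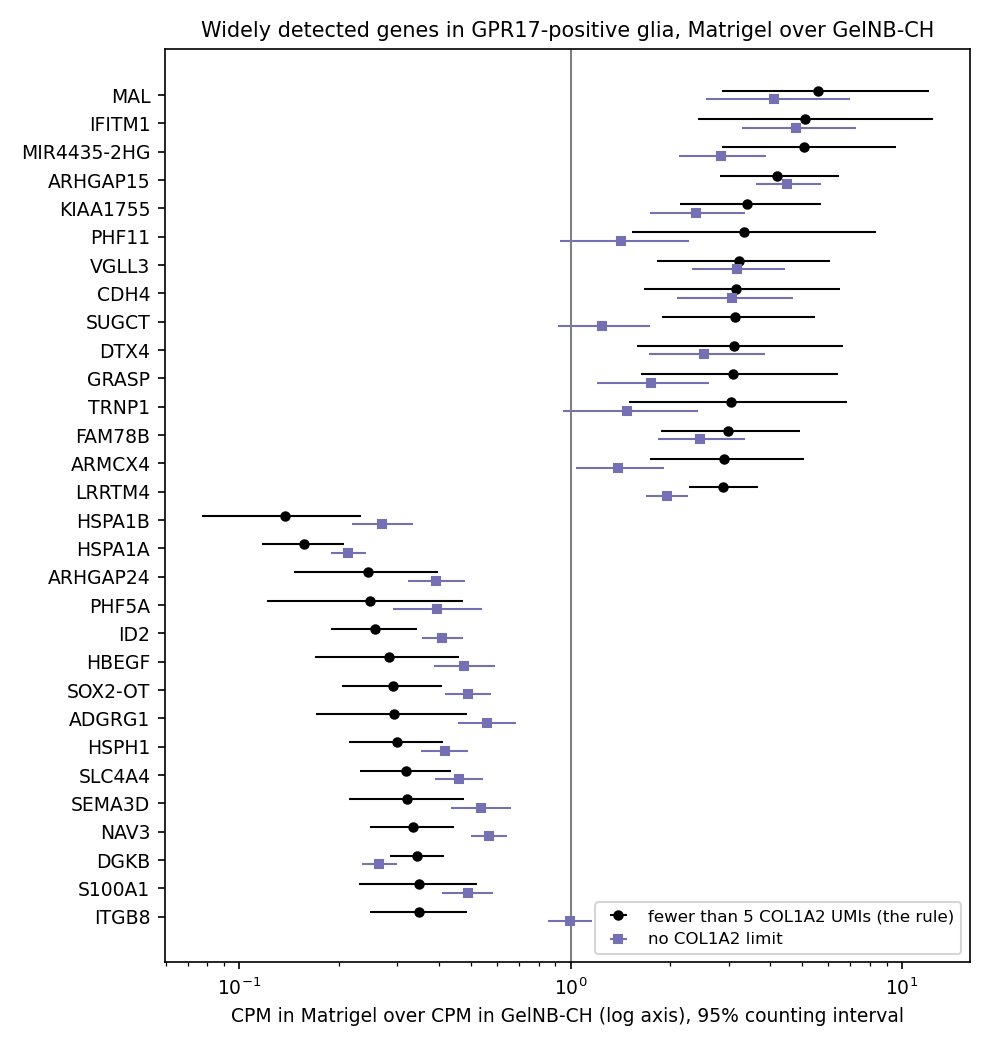
Matrigel over GelNB-CH ratio of CPM (horizontal, log axis) with 95% counting intervals for the 30 widely detected genes with the largest ratios, in members (circles) and without the COL1A2 limit (squares). MAL stands at 5.58 and 4.11 and HSPA1A at the low end under both, while ITGB8 moves to the line of equal levels when the limit is dropped.

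GPR17-positive glia were next set beside glia that met the rest of the rule and had no GPR17 UMI, 362 in GelNB-CH and 331 in Matrigel. Median depths were close, at 7739 and 7433 UMIs in GelNB-CH and 11633 and 10551 in Matrigel. The shallow ends were less close in Matrigel, with 10th percentiles of 7177.8 and 4911 UMIs, against 5485.5 and 5042.3 in GelNB-CH. Since most members had a single GPR17 UMI, GPR17-negative glia include cells whose GPR17 RNA was not captured. Of 9345 genes compared, 9 (0.0963%) were at least 2-fold higher and 46 (0.492%) at least 2-fold lower in GPR17-positive glia in both libraries. The 9 include GPR17, which the rule used. The rule made this contrast, so the counts are a description with no test.

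ADGRD1, an adhesion G protein-coupled receptor, stood at 22.8 CPM in GPR17-positive and 8.07 in GPR17-negative glia of GelNB-CH, and at 31.2 and 14.04 in Matrigel, with ratios of 2.83 (1.54 to 5.20) and 2.22 (1.45 to 3.38). ACSBG1 stood at 40.0 against 17.8 CPM and 53.8 against 26.7 CPM, ratios of 2.24 (1.46 to 3.43) and 2.01 (1.47 to 2.74). LARGE-AS1, an antisense RNA gene, had ratios of 2.62 and 2.07. SPARCL1 and PDGFB, a secreted matrix protein and a growth factor chain, were also among the 9, with PDGFB at 17.1 against 7.74 CPM and 19.8 against 7.56 CPM. Just under 2-fold in one library were NRARP, a target and inhibitor of NOTCH signalling, with ratios of 1.76 (1.41 to 2.19) and 2.18 (1.76 to 2.69), STEAP1B at 1.78 and 2.28, and CXCL12, a chemokine, at 1.75 and 2.16. NRARP had a UMI in 51.6% and 53.1% of members, and its ratios were 1.58 and 1.74 without the COL1A2 limit. Of the 12 NOTCH pathway genes with a mean of at least 5 CPM, 8 in GelNB-CH and 11 in Matrigel were higher in GPR17-positive glia. Over all genes, 5539 of 11621 in GelNB-CH and 5635 of 11621 in Matrigel were higher. The median log2 ratios of the NOTCH list were 0.17 and 0.32 where all genes had -0.02 and -0.01. HEY1, a NOTCH target, stood at 728 against 559 CPM and 535 against 402 CPM.

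The 46 genes lower in GPR17-positive glia included several known from neurons. NRXN3, a presynaptic neurexin, stood at 37.1 CPM in GPR17-positive and 121 in GPR17-negative glia of GelNB-CH and at 43.9 and 121 in Matrigel, with GPR17-negative over GPR17-positive ratios of 3.27 (2.35 to 4.68) and 2.75 (2.11 to 3.65). RIMS1, a scaffold of the presynaptic release site, stood at 36.2 against 101 CPM and 39.7 against 120 CPM. CNTN1, an axonal adhesion protein, had ratios of 3.59 and 3.64, and NEFM, a neurofilament chain, 5.43 and 3.91. FOXP2, a transcription factor, stood at 13.3 against 45.7 CPM and 10.6 against 46.2 CPM, and DPYD, a pyrimidine-degrading enzyme, at 42.8 against 93.2 CPM and 29.1 against 91.3 CPM. Among the higher-expressed genes were PPP2R2B, a phosphatase subunit, at 232 against 476 CPM and 213 against 869 CPM, and ZNF804B at 143 against 309 CPM and 96.4 against 350 CPM. PAX2, a transcription factor of otic epithelium, stood at 1.90 against 14.5 CPM and 2.83 against 22.4 CPM. Of the 6 otic epithelium markers compared, 2, PAX2 and CDH1, were at least 2-fold lower in both libraries. Another 1, SPARCL1, was at least 2-fold higher, at 20.0 against 9.76 CPM and 41.1 against 11.1 CPM. The neuron marker list had medians of -0.56 and -0.54 with none of 8 compared genes at least 2-fold lower in both libraries, while 3 of 13 synaptic adhesion and axon contact genes were, at list medians of -0.15 and 0.05. Cells with at least 5 UMIs of neuron or cartilage genes numbered 35 of 362 and 29 of 331 GPR17-negative glia and 8 of 128 and 9 of 113 members. With those cells left out, 11 genes were higher and 38 lower, of which 6 and 24 were the same genes.

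Without the COL1A2 limit these counts were 3 higher and 3 lower, and of the original genes only GPR17 and PAX2 remained. Of the 24 genes with the largest ratios, all kept their direction in GelNB-CH and 22 in Matrigel, and the ratios were nearer to 1 for 22 and 24 of them. NRXN3 then had GPR17-negative over GPR17-positive ratios of 1.36 and 1.26 and RIMS1 1.38 and 1.66, while ACSBG1 had GPR17-positive over GPR17-negative ratios of 1.62 and 1.83 and CXCL12 of 1.57 and 2.13. In Matrigel NEFM crossed to the other side, at a GPR17-positive over GPR17-negative ratio of 1.18, and LRRC7, a postsynaptic scaffold gene, at 1.01.

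**Figure D5:**
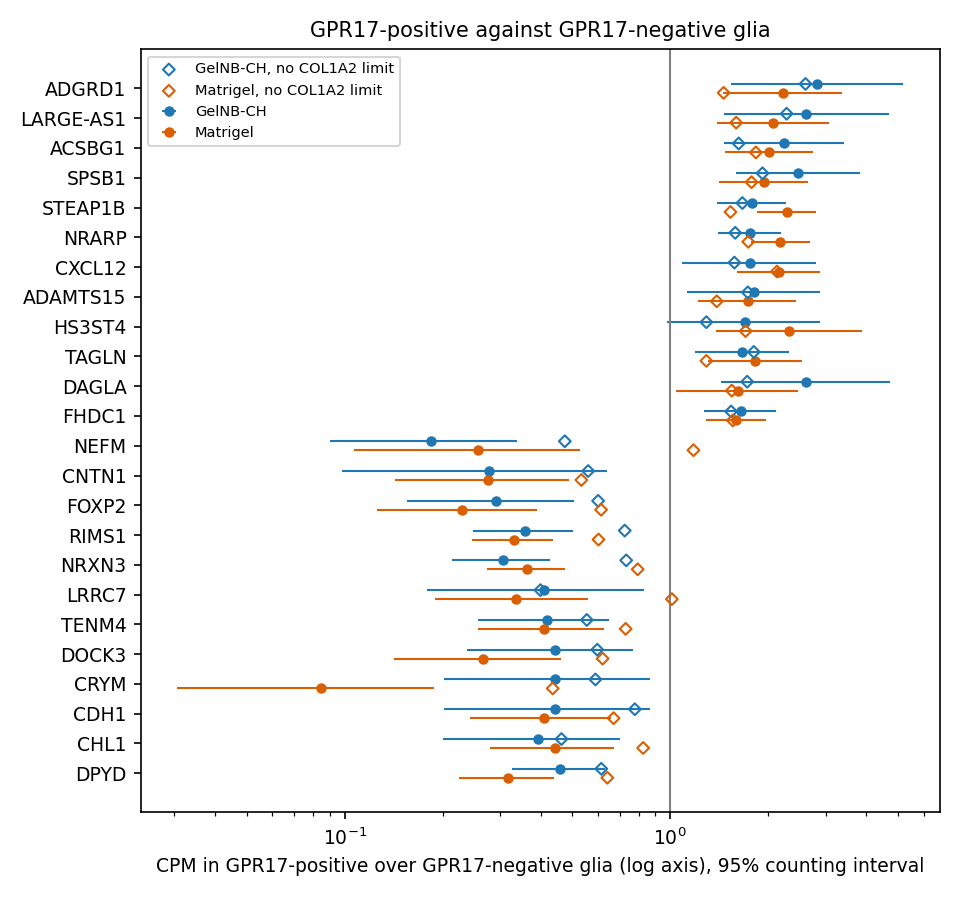
Ratio of CPM in GPR17-positive over GPR17-negative glia (horizontal, log axis) in each library for the 24 genes with the largest ratios, 12 in each direction, with 95% counting intervals, and the same ratio without the COL1A2 limit as open diamonds. Diamonds lie nearer to 1 for 22 genes in GelNB-CH and 24 in Matrigel, and NEFM in Matrigel lies above 1 at 1.18.

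Members also varied among themselves. Those with 2 or more GPR17 UMIs, 38 in GelNB-CH and 25 in Matrigel, were compared with those holding 1, at median depths of 7683.5 against 7739 and 12666 against 11424 UMIs. Of 9165 genes, 84 (0.917%) were at least 2-fold higher and 76 (0.829%) at least 2-fold lower in both libraries, on small counts. A split at 4 UMIs could not be used, with 1 and 5 members above it. OTOL1, which encodes otolin of the inner ear matrix, stood at 6.29 against 21.8 CPM in GelNB-CH and at 0 against 57.6 in Matrigel, and SPOCK1, a testican proteoglycan, at 37.7 against 5.46 and 39.7 against 14.2 CPM. The GelNB-CH interval of the OTOL1 ratio, 0.0321 to 1.22, included equal levels.

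Clustering of the 221 members left after doublets and the neuron or cartilage marker cells were removed gave 4 subgroups, which are named here by a leading gene and are descriptions, since the clustering used every gene. Each subgroup held cells of both libraries. The largest, led by LINGO2, held 94 cells, 41.9% of GelNB-CH and 43.3% of Matrigel members. The others, led by LGALS3, PPP2R2B and MAL, held 54, 32 and 41 cells, or 27.4%, 13.7% and 17.1% of GelNB-CH and 21.2%, 15.4% and 20.2% of Matrigel members. Mean GPR17 UMIs per cell ran from 1.30 in the LINGO2 subgroup to 1.49 in the MAL subgroup, and median depths from 7370 UMIs in the LGALS3 subgroup to 10320 in the LINGO2 subgroup.

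The LGALS3 subgroup had LGALS3, the galectin of macrophages and injured glia, at 330 CPM against 85.7 in the other members, APOE, the lipid carrier, at 153 against 38.0, EGFL8 at 679 against 235, and MIA, a secreted protein of crest-derived cells, at 977 against 428. The PPP2R2B subgroup had PPP2R2B at 1012 CPM against 98.6, ZNF804B at 409 against 52.8, PTGDS, prostaglandin D synthase, at 292 against 40.8, SPP1, osteopontin, at 213 against 28.9, and RIMS1 and NRXN3 at 140 against 15.2 and 146 against 22.3. PPP2R2B, ZNF804B, RIMS1 and NRXN3 were thus high in a minority of members and were also among the genes lower in members than in GPR17-negative glia. The LINGO2 subgroup had LINGO2 at 750 CPM against 139, IL1RAPL2 at 1430 against 296, CNTNAP2, an axon-glia contact protein, at 728 against 150, and NLGN1, a neuroligin, at 705 against 173. The MAL subgroup had MAL at 105 against 24.0 CPM, MDK, the growth factor midkine, at 768 against 439, and NRARP at 216 against 108. Median mitochondrial shares ran from 2.48% to 3.14% of UMIs.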

How the data were processed

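Single cells of 2 libraries were profiled by the 10x 3' assay. The deposited values are whole UMI counts for each gene and called barcode with no scaling, as the file headers show. The authors ran Cell Ranger, 7.1.0 per the file headers and 4.0.0 per the labels' protocols. STAR and GRCh38 are named in the submitters' processing notes, and the sources used here give no annotation version. Counts were summed over a class and scaled to CPM. Ratios have exact conditional binomial 95% intervals and shares exact Clopper-Pearson ones. Gene coordinates come from GENCODE on GRCh38, which matched 34616 of 36601 genes.

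A gene was apart between classes or libraries at 10 CPM or more on the higher side and a ratio of at least 2. List medians used log2 of CPM plus 1 over genes with a mean of at least 5 CPM. Members and lists were chosen with earlier results of these data known. Ranked genes had at least 20 CPM on the higher side: 12 in each direction between libraries (interval excluding 1.5-fold) and between GPR17-positive and GPR17-negative glia, and 15 against other cells. Rule, mitochondrial, ribosomal and clone-named genes were left out of the ranks, and the extremes of each list were added. Some genes within these rules are not reported here. Other genes named, the set detected in 20% of members, the split at 2 GPR17 UMIs, the dropped COL1A2 limit and the removal of marker cells were chosen after values were seen. Doublets, marked with scanpy 1.11.5 (0.8% per 1000 barcodes), were kept unless stated. Subgroups used 1500 variable genes, 15 components, 15 neighbours and Leiden resolution 0.5. Calculations used numpy 2.4.6, pandas 2.3.3, scipy 1.17.1 and edgeR 4.0.16 (TMM factors) and were tested on simulated data.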

Additional observations from a re-analysis of the deposited data

Results flagged for a closer look

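For 5 genes the difference between GPR17-positive and GPR17-negative glia was at least 2-fold in opposite directions in the 2 libraries, each with a counting interval excluding 1. They were among the 9345 genes compared, of which 9 (0.0963%) were at least 2-fold higher and 46 (0.492%) at least 2-fold lower in both libraries. Whether the libraries differ was not tested. KCNIP4, a potassium channel modulator, had a GPR17-positive over GPR17-negative ratio of 0.447 in GelNB-CH and 2.07 in Matrigel. Of its UMIs, 1 GelNB-CH member held 12 of 18 and 1 Matrigel member 11 of 37. RASGEF1B, an exchange factor, had 0.435 and 2.03, and 1 Matrigel member held 39 of its 51 UMIs. NRG1, the neuregulin ligand, had 2.70 and 0.266, and 1 GelNB-CH member held 35 of its 40 UMIs. RALYL, an RNA-binding protein gene, had 3.45 and 0.325, with 24 of 39 GelNB-CH UMIs in 1 member. NTRK2, the BDNF receptor, had 2.18 and 0.294, with 16 of 27 GelNB-CH UMIs in 1 member. Without the COL1A2 limit the ratios were 0.473 and 1.07 for KCNIP4, 0.864 and 1.04 for RASGEF1B, 2.07 and 0.521 for NRG1, 1.90 and 0.852 for RALYL, and 1.27 and 0.626 for NTRK2. Without the neuron and cartilage marker cells they were 0.525 and 2.36 for KCNIP4, 1.18 and 0.830 for RASGEF1B, 8.09 and 0.277 for NRG1, 1.24 and 0.948 for RALYL, and 2.73 and 0.273 for NTRK2. For KCNIP4 in cells of 8000 to 16000 UMIs they were 0.652 (0.343 to 1.16) and 1.28 (0.568 to 2.72). RASGEF1B had 0.285 and 0.306 in those cells, the same direction in both libraries. NTRK2 had 1.28 (0.475 to 3.17) and 0.345 (0.143 to 0.721) there, NRG1 11.1 and 0.0623, and RALYL 3.97 and 0 (0 to 1.12).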

How the results depend on the processing

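Depth and cell number limit these values, since 90 of 128 and 88 of 113 members had 1 GPR17 UMI. No paired analysis was possible because each condition has 1 library. The thinned version of the comparison by GPR17 UMIs was not run. Thinning to 5000 UMIs, with the whole rule applied again to the thinned counts, gave a share of 0.300% in GelNB-CH, GPR17-positive shares of glia of 16.3% and 15.7%, and a Matrigel over GelNB-CH ratio of 3.48 (2.50 to 4.88). These thinned glia numbered 356 and 669, where the full counts gave 490 and 444. At least 2 GPR17 UMIs gave 0.178% and 0.238% of kept cells, 7.76% and 5.63% of glia and a ratio of 1.34 (0.773 to 2.27). At least 5 UMIs of the glial genes gave 0.366% in GelNB-CH and a ratio of 2.45. No COL1A2 limit gave 0.901%, 5.67% and a ratio of 6.29. At least 2000 genes, at most 10% mitochondrial UMIs and doublet removal gave ratios of 1.76, 1.78 and 1.68.

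Genes at least 2-fold higher in Matrigel and in GelNB-CH numbered 49 and 49 at a CPM of 50, 1518 and 1086 with 2 GPR17 UMIs, 831 and 666 after thinning 233 and 231 without the COL1A2 limit, and 688 and 843 in cells of 8000 to 16000 UMIs. Genes higher and lower in GPR17-positive glia numbered 1 and 7 at a CPM of 50, 16 and 77 at like depth, 55 and 123 with 2 GPR17 UMIs and 3 and 3 without the limit. TMM factors moved no count by over 1.5 times. Without the COL1A2 limit 29 of 50 ratios of ranked genes between libraries and 17 of 48 between GPR17-positive and GPR17-negative glia lay outside their original counting intervals, and a further 2 of the 48 crossed 1. In cells of 8000 to 16000 UMIs, 22 ratios between libraries lay outside, a further 5 crossed 1 and 21 did neither. With at least 2 GPR17 UMIs these numbers were 20, 4 and 20.

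The genes whose Matrigel over GelNB-CH ratio crossed 1 at like depth included RBFOX3 (0), THSD7B (0), PRPH (0.669) and TTN (0.223). With 2 GPR17 UMIs the ratio crossed 1 for TTN (0.451), MGP (1.80), S100A1 (1.05) and ITGB8 (1.07). It crossed 1 for PRPH without doublets (0.729), and without marker cells for NEUROD1 (0.760), PRPH (0.950), MATN1 (1.27), HAPLN1 (1.14) and MGP (1.52). The GPR17-positive over GPR17-negative ratio crossed 1 for NEFM in Matrigel (1.18) and LRRC7 in Matrigel (1.01) without the COL1A2 limit, for LRRC7 in Matrigel at like depth (1.46) and without marker cells (1.45), and for LRRC7 in GelNB-CH without marker cells (1.09). TAGLN in Matrigel, whose ratio was 1.82, also crossed 1 at like depth (0.623). The causes were not tested.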
